A study of Caenorhabditis elegans with 6 samples.

Results

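Translation factors are the proteins that start, extend and end the reading of an mRNA by the ribosome. The 33 genes described here code for initiation, elongation and termination factors and for poly(A)-binding proteins in Caenorhabditis elegans. They were chosen by symbol, as every gene of the deposited table whose name begins with eif-, iff-, ife-, ifg-, inf-, iftb-, ifet-, eef-, eft-, erf-, etf- or pab-. The table holds 46646 genes, and 9268 of them, all 33 translation factor genes included, had 1 or more reads in some library. The NCBI RefSeq annotation (assembly WBcel235) listed all 33 as protein-coding. It gave a different symbol for 2 of them, erfa-1 for etf-1 and eif-2beta for iftb-1. The rule used names only, and no read count entered it.

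The libraries came from iCLIP, in which a protein is fixed by ultraviolet light to RNA in contact with it and is then immunoprecipitated with its RNA. Embryos of mixed early stages, harvested from gravid adults grown at 20 °C, were exposed 3 times to 400 mJ/cm2 of ultraviolet light. An antibody to GFP was used in every library. There were 3 groups with 2 libraries in each. In MEG-3::GFP and PGL-1::GFP, GFP was fused at the gene's own locus to MEG-3, a protein of the gel-like phase of P granules, or to PGL-1, a protein of their liquid phase. The third group was GFP without a fusion partner, and the labels name no strain for it. A strain with GFP driven by the pie-1 promoter, which is active in the germline, in an unc-119(ed3) background is listed among the study's resources, but no source used here says that it was the control. Whole embryos were lysed, so reads from inside and outside P granules, and from germline and somatic cells, cannot be told apart.

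P granules are RNA and protein condensates of the germ lineage, which collect in the germline blastomeres of the early embryo. Translation of most mRNAs starts when the cap at the 5′ end is bound by eIF4E, which eIF4G joins to the helicase eIF4A and, through eIF3, to the small ribosomal subunit. eIF1, eIF1A and eIF2 choose the start codon, eEF1A and eEF2 bring in aminoacyl-tRNA and move the ribosome, and eRF1 recognises the stop codon. The values below are reads on the mRNAs that code for these factors, and say nothing of where the factors themselves act.

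Depth differed widely between the libraries. Replicates 1 and 2, in that order here and below, had 225609 and 280007 reads on genes for MEG-3::GFP, 21180 and 92593 for PGL-1::GFP, and 26531 and 14040 for GFP. Where 3 pairs of counts are given without group names, they follow this order of groups. Where no read was seen, up to 3 may have been missed by counting error alone. Those 3 reads are 10.7 counts per 1000000 reads (CPM) at the greatest depth and 214 CPM at the smallest. Of 12 mRNAs of the early embryo and germ lineage, 10 reached 60 reads in each of the MEG-3::GFP libraries and 6 had a read in GFP replicate 2. Among all genes with a read, 7.09% reached 60 reads in both MEG-3::GFP libraries. The 5 sperm genes had no read in any library, the 6 yolk protein genes had 1 read in all, and the 3 cuticle genes had 9 reads in GFP replicate 2 against at most 1 in any other library. The 3 muscle genes had 1 and 30 reads with MEG-3::GFP, 0 and 41 with PGL-1::GFP, and 14 and 28 with GFP alone, and the 3 neuronal genes 222 and 51, 0 and 33, and 21 and 8. Most of these neuronal gene reads lay on snb-1 (191 and 43, 0 and 32, and 21 and 2), and rab-3 had none. Relative to depth, muscle and cuticle genes were highest in GFP replicate 2, at 1994 and 641 CPM, against at most 528 and 10.8 CPM elsewhere. Of its 28 muscle gene reads, 27 lay on unc-54. The 12 early embryo mRNAs were lowest there, at 2707 CPM against 8586 CPM or more. The neuronal genes, at 569.8 CPM, were not highest there, and the yolk genes had 0 reads. The part of RNA from such tissues in the results below was not tested.

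Together the 33 genes took between 0.463% and 1.43% of the reads on genes in each library. Their reads summed to 1547 and 2929 with MEG-3::GFP, 302 and 1251 with PGL-1::GFP and 298 and 65 with GFP alone. As a share of all reads on genes this was 0.686% (95% Wilson interval 0.652 to 0.721) and 1.05% (1.01 to 1.08) in MEG-3::GFP. It was 1.43% (1.27 to 1.59) and 1.35% (1.28 to 1.43) with PGL-1::GFP, and 1.12% (1.00 to 1.26) and 0.463% (0.363 to 0.590) with GFP alone. The highest shares were those of the PGL-1::GFP libraries, and the GFP libraries lay on either side of MEG-3::GFP. In PGL-1::GFP replicate 1, however, 222 of the 302 reads (73.5%) lay on 2 genes, eif-3.G and etf-1, so its share depended on these.

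**Figure D1:**
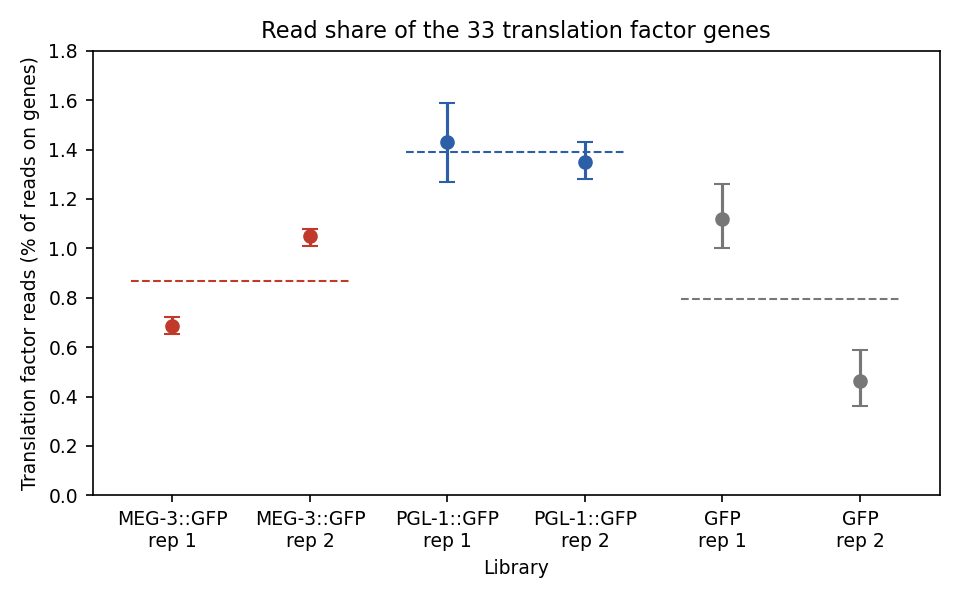
Reads on the 33 translation factor genes as a percent of all reads on genes (y axis) in each of the 6 libraries (x axis). Points are libraries, bars are 95% Wilson intervals for counting error, and dashed lines are group means. The PGL-1::GFP libraries, at 1.43% and 1.35%, lie above the other 4.

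The mean share was 0.866% ± 0.255 (SD, n = 2) in MEG-3::GFP, 1.39% ± 0.0529 with PGL-1::GFP and 0.793% ± 0.467 with GFP alone. MEG-3::GFP exceeded GFP by 0.0728 percentage points, less than the spread within either group (exact two-sided permutation test over libraries, p = 1.00). The PGL-1::GFP share was above that of GFP by 0.595 percentage points, with no overlap (exact permutation p = 0.33, Benjamini-Hochberg 0.50 over 3 comparisons). Set against PGL-1::GFP, the MEG-3::GFP share differed by -0.523 percentage points, also with no overlap (exact permutation p = 0.33, adjusted 0.50). With 2 libraries against 2, no p below 0.33 can be reached, so none of these comparisons could pass a threshold of 0.05.

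A read was seen for 22 and 30 of the 33 genes in MEG-3::GFP, 11 and 33 with PGL-1::GFP, and 21 and 14 with GFP alone. Among the 9235 other genes with a read somewhere, 33.7% and 69.6% were detected in MEG-3::GFP, 11% and 85.8% with PGL-1::GFP, and 44.9% and 21.6% with GFP alone. The translation factor genes were detected at a higher rate in every library, at 66.7% and 90.9%, 33.3% and 100%, and 63.6% and 42.4%. Drawn down by calculation to the 14040 reads of the shallowest library, the expected number detected was 13.4 and 21.1 in MEG-3::GFP, 10.2 and 27.2 with PGL-1::GFP, and 17.8 and 14.0 with GFP alone. At that common depth the replicates of a group still differed more than the groups did. Only 6 of the 33 were read in all 6 libraries.

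A count of 60 reads, which the paper set as the background level from its GFP libraries, served as the threshold. The paper calls mRNAs that passed it in both MEG-3::GFP experiments MEG-3-bound. In MEG-3::GFP it was reached by 9 and 10 of the 33 genes, against 12.5% and 13.5% of all genes with a read. In PGL-1::GFP it was reached by 2 and 8 of them (background 1.37% and 2.11%), and in GFP by 2 and 0 (background 0.442% and 0.0755%). As percentages of the 33 these were 27.3 and 30.3, 6.06 and 24.2, and 6.06 and 0. The same 60 reads are 266 and 214 CPM in MEG-3::GFP, 2833 and 648 CPM in PGL-1::GFP, and 2262 and 4274 CPM in GFP, so the counts are not a comparison of groups at equal depth.

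**Figure D2:**
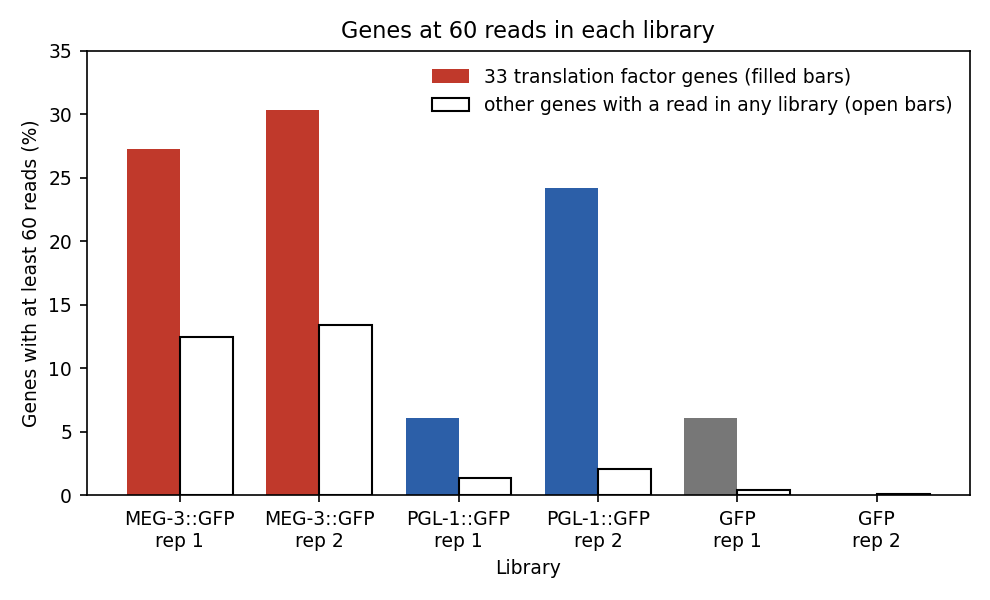
Percent of genes with at least 60 reads (y axis) in each library (x axis), for the 33 translation factor genes (filled bars) and for 9235 other genes with a read in any library (open bars). The filled bar is higher in 5 libraries, and in GFP replicate 2 no translation factor gene reached 60 reads.

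In both MEG-3::GFP libraries 60 reads were reached by 5 of the 33 genes, ifet-1, inf-1, ifg-1, eef-1A.1 and eef-1G, against 7.09% of all genes with a read. No translation factor gene did so in both PGL-1::GFP libraries (background 0.194%) or in both GFP libraries (0.0432%). In 1 or both libraries of a group it was reached by 14 genes for MEG-3::GFP, 10 for PGL-1::GFP and 2 for GFP, which is 42.4%, 30.3% and 6.06% of the 33 against 18.8%, 3.19% and 0.455% of other genes with a read. Over all libraries, 17 genes reached 60 reads at least once and 16 never did (51.5% did, against 19.9% of other genes). The member just inside the threshold in both MEG-3::GFP libraries was eef-1G, whose lower count was 75, and the one just outside was eef-1A.2, whose lower count was 31.

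**Figure D3:**
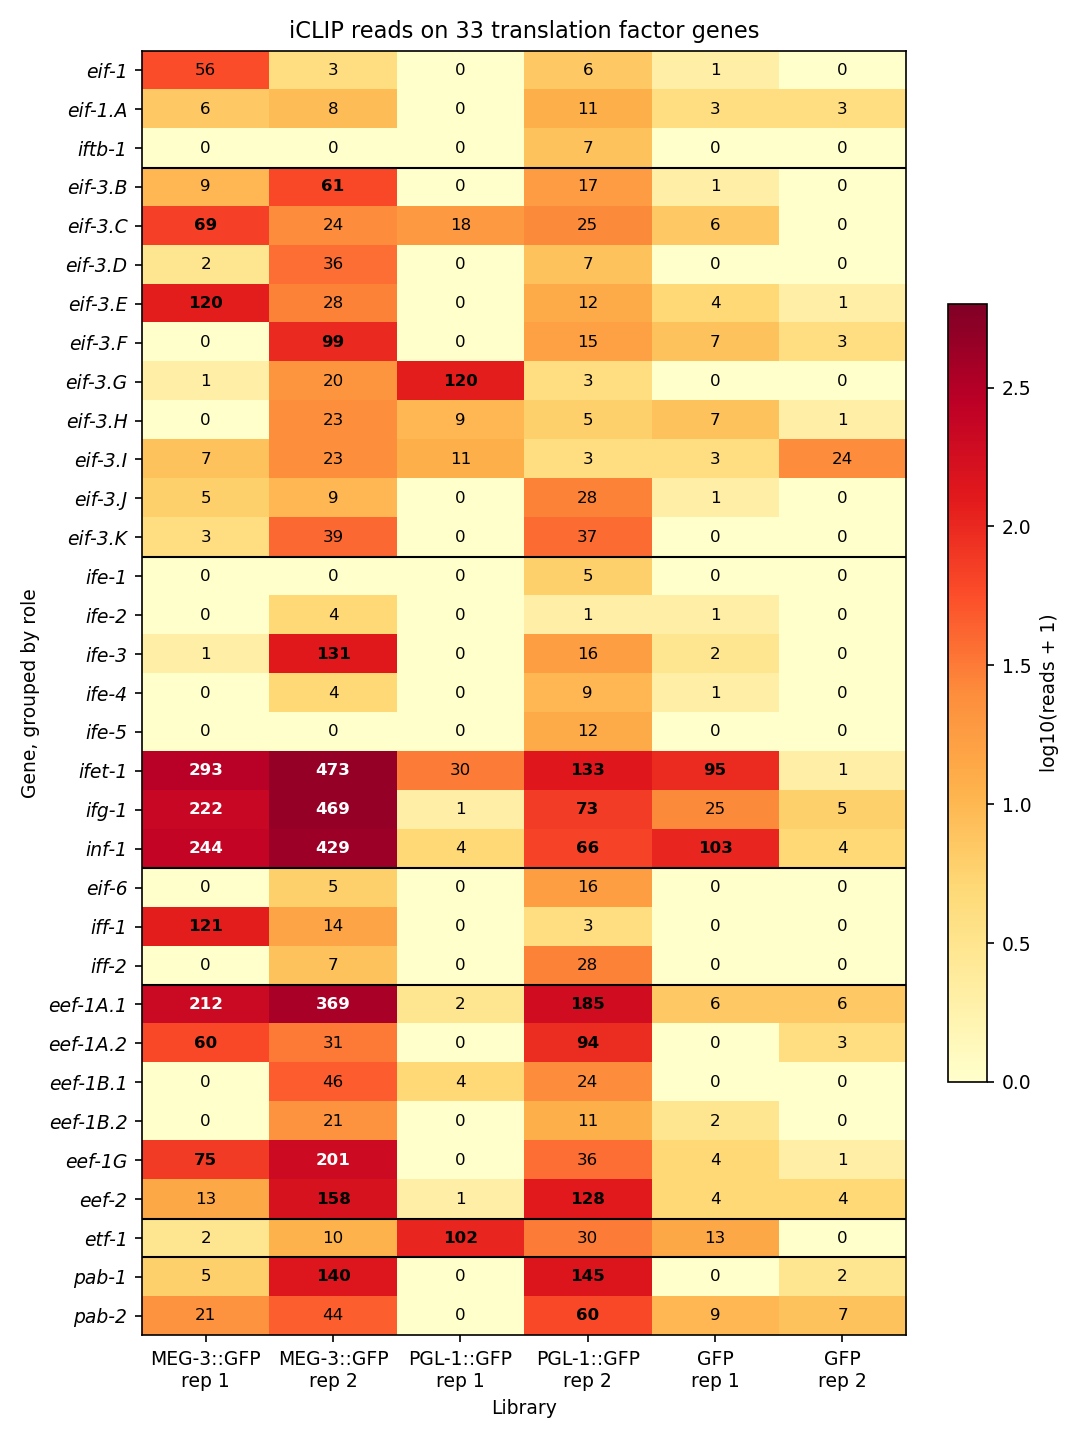
Reads on each of the 33 genes (rows, grouped by role) in each library (columns). Colour gives log10(reads + 1), the number printed is the read count, and counts of 60 or more are in bold. The darkest block is ifet-1, ifg-1 and inf-1 in MEG-3::GFP.

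The mRNAs of the cap-binding complex and its partners held the largest part of the translation factor reads in MEG-3::GFP, with 760 of 1547 reads (49.1%) and 1510 of 2929 (51.6%) over 8 genes. Of these, 759 and 1371 reads lay on 3 genes, ifet-1, inf-1 and ifg-1. In ifet-1, the homologue of the eIF4E transporter 4E-T, a translational repressor that is found in P granules, there were 293 and 473 reads with MEG-3::GFP, 30 and 133 with PGL-1::GFP, and 95 and 1 with GFP alone. It was the member with the most reads in both MEG-3::GFP libraries. Relative to depth it stood at 1299 and 1689 CPM in MEG-3::GFP, 1416 and 1436 CPM in PGL-1::GFP, and 3581 and 71.2 CPM in GFP, so GFP spanned both other groups. The gene lies on chromosome III at 4471403 to 4475150 (WBcel235, as for all positions given here).

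For inf-1, which codes for the helicase eIF4A, the reads were 244 and 429 with MEG-3::GFP, 4 and 66 with PGL-1::GFP and 103 and 4 with GFP alone. In CPM this was 1082 and 1532, 189 and 713, and 3882 and 285. The MEG-3::GFP libraries were above both PGL-1::GFP libraries and between the GFP libraries, in one of which inf-1 was the fourth gene of all by reads (rank 4). The gene lies on chromosome III at 6930134 to 6931953. Reads on ifg-1, the single eIF4G scaffold gene, came to 222 and 469 with MEG-3::GFP, 1 and 73 with PGL-1::GFP and 25 and 5 with GFP alone. At 984 and 1675 CPM both MEG-3::GFP libraries lay above PGL-1::GFP, at 47.2 and 788 CPM, and above GFP, at 942 and 356 CPM. The first MEG-3::GFP library exceeded the first GFP library only narrowly. The gene spans 8217222 to 8222396 on chromosome II and overlaps dab-1, on which 1502 reads were counted over the 6 libraries. How reads in the shared stretch were assigned is not given in the sources used here, so the ifg-1 counts are uncertain.

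Per kilobase of gene, introns included, inf-1 had 134 and 236 reads with MEG-3::GFP, ifet-1 78.2 and 126, and ifg-1 42.9 and 90.6. The order was the same in both libraries. In GFP replicate 1 inf-1 and ifet-1 together held 198 of 298 translation factor reads (66.4%), with 56.6 and 25.3 reads per kilobase of gene. In GFP replicate 2 the counts of these genes were 4 and 1.

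The eIF4E proteins that bind the cap are coded by 5 genes. Of these only ife-3, a germline eIF4E, reached 60 reads. It had 1 and 131 reads with MEG-3::GFP, 0 and 16 with PGL-1::GFP, and 2 and 0 with GFP alone. Its MEG-3::GFP libraries, at 4.43 and 468 CPM, lay on either side of every other library that had a read. The other members of the family, ife-1, ife-2, ife-4 and ife-5, had at most 4 reads in any MEG-3::GFP library, at most 12 in PGL-1::GFP replicate 2, none in PGL-1::GFP replicate 1, and at most 1 with GFP alone. The protein IFE-1 is known to associate with PGL-1, and the ife-1 mRNA was read only in PGL-1::GFP replicate 2, 5 times.

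eIF3 is the largest initiation factor, and 10 of its genes carry the eif-3 name in the table. They held 14.0% and 12.4% of the translation factor reads in MEG-3::GFP, 52.3% and 12.2% with PGL-1::GFP, and 9.73% and 44.6% with GFP alone. The high values in single libraries came from single genes. For eif-3.G the reads were 1 and 20 with MEG-3::GFP, 120 and 3 with PGL-1::GFP and 0 and 0 with GFP alone, so most of its reads came from 1 library. For eif-3.I they were 7 and 23, 11 and 3, and 3 and 24, and in GFP replicate 2, where only 65 translation factor reads were counted, those 24 were 36.9% of them.

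The subunit genes that reached 60 reads in MEG-3::GFP did so in 1 library each. The counts for eif-3.E were 120 and 28 with MEG-3::GFP, 0 and 12 with PGL-1::GFP and 4 and 1 with GFP alone. Those for eif-3.C were 69 and 24, 18 and 25, and 6 and 0. Both were higher in the first MEG-3::GFP library, the shallower of the pair. The opposite held for eif-3.F, at 0 and 99 reads with MEG-3::GFP, 0 and 15 with PGL-1::GFP, and 7 and 3 with GFP alone, and for eif-3.B, with 9 and 61, 0 and 17, and 1 and 0. The other 4 subunit genes (D, H, J and K) had at most 39 reads in any library. Neither MEG-3::GFP library was therefore the higher one for all eIF3 mRNAs.

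Of the 3 genes for eIF1, eIF1A and the beta subunit of eIF2, none reached 60 reads. The closest was eif-1, whose product guards start codon choice. It had 56 and 3 reads with MEG-3::GFP, 0 and 6 with PGL-1::GFP, and 1 and 0 with GFP alone. The counts of eif-1.A were between 0 and 11 in every library, and iftb-1 was read only in PGL-1::GFP replicate 2, 7 times.

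The eIF5A genes, iff-1 and iff-2, are paralogs, and iff-1 is the form known from the germline. Reads on iff-1 came to 121 and 14 with MEG-3::GFP, 0 and 3 with PGL-1::GFP and 0 and 0 with GFP alone. At 536 and 50.0 CPM both MEG-3::GFP libraries lay above PGL-1::GFP, at 0 and 32.4 CPM, although they differed from each other by more than the second did from PGL-1::GFP. The upper limit for 0 reads in GFP, 113 and 214 CPM, is above the lower of them. For iff-2 the counts were 0 and 7, 0 and 28, and 0 and 0. Per kilobase of gene the order of the paralogs was therefore iff-1 over iff-2 in both MEG-3::GFP libraries (90.8 against 0 and 10.5 against 5.06) and the reverse in PGL-1::GFP replicate 2 (2.25 against 20.2). The ribosome assembly factor gene eif-6 had at most 16 reads.

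Elongation factor genes held 23.3% and 28.2% of the translation factor reads in MEG-3::GFP, 2.32% and 38.2% with PGL-1::GFP, and 5.37% and 21.5% with GFP alone. The gene with the most reads was eef-1A.1, for the factor that delivers aminoacyl-tRNA. It had 212 and 369 reads with MEG-3::GFP, 2 and 185 with PGL-1::GFP, and 6 and 6 with GFP alone. At 939.7 and 1318 CPM in MEG-3::GFP it was above both GFP libraries (226 and 427 CPM), while PGL-1::GFP lay on either side (94.4 and 1998 CPM). The gene lies on chromosome III at 6970026 to 6971712. Its paralog eef-1A.2 had 60 and 31 reads with MEG-3::GFP, 0 and 94 with PGL-1::GFP, and 0 and 3 with GFP alone.

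Per kilobase of gene, eef-1A.1 stood at 126 and 219 reads with MEG-3::GFP, and eef-1A.2 at 28.4 and 14.7. In PGL-1::GFP replicate 2 the values were 109.7 and 44.4. The paralogs code for nearly the same protein, and reads that match both could be split or lost in the authors' counting, so the values of each are uncertain.

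The subunits of the exchange factor that recharges eEF1A were uneven. Reads on eef-1G, the gamma subunit gene, were 75 and 201 with MEG-3::GFP, 0 and 36 with PGL-1::GFP and 4 and 1 with GFP alone, and both MEG-3::GFP libraries (332 and 718 CPM) lay above GFP (151 and 71.2 CPM). PGL-1::GFP replicate 2, at 389 CPM, lay between the MEG-3::GFP libraries. The gene lies on chromosome V at 10965719 to 10967922 and overlaps 3 other annotated genes, which had 8, 6 and 0 reads. Counts for eef-1B.1 were 0 and 46, 4 and 24, and 0 and 0, and for eef-1B.2 0 and 21, 0 and 11, and 2 and 0. For eef-2, which moves the ribosome along the mRNA, there were 13 and 158 reads with MEG-3::GFP, 1 and 128 with PGL-1::GFP, and 4 and 4 with GFP alone. It was high in the second library of both fusion groups and low in the first.

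The termination factor gene etf-1, which codes for the release factor eRF1, showed 2 and 10 reads with MEG-3::GFP, 102 and 30 with PGL-1::GFP, and 13 and 0 with GFP alone. Both PGL-1::GFP libraries (4816 and 324 CPM) were above both MEG-3::GFP libraries (8.86 and 35.7 CPM), and GFP, at 490.0 and 0 CPM, overlapped both. With eif-3.G it made up 222 of the 302 translation factor reads of PGL-1::GFP replicate 1 (73.5%).

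The poly(A)-binding protein genes reached 60 reads in the second libraries of the fusion groups only, pab-1 in both of these and pab-2 in that of PGL-1::GFP. The counts of pab-1 were 5 and 140 with MEG-3::GFP, 0 and 145 with PGL-1::GFP and 0 and 2 with GFP alone. Those of pab-2 were 21 and 44, 0 and 60, and 9 and 7. Per kilobase of gene pab-1 exceeded pab-2 in MEG-3::GFP replicate 2 (58.9 against 12.4) but not in replicate 1 (2.1 against 5.90). These genes too are paralogs, and shared reads could be split between them.

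**Figure D4:**
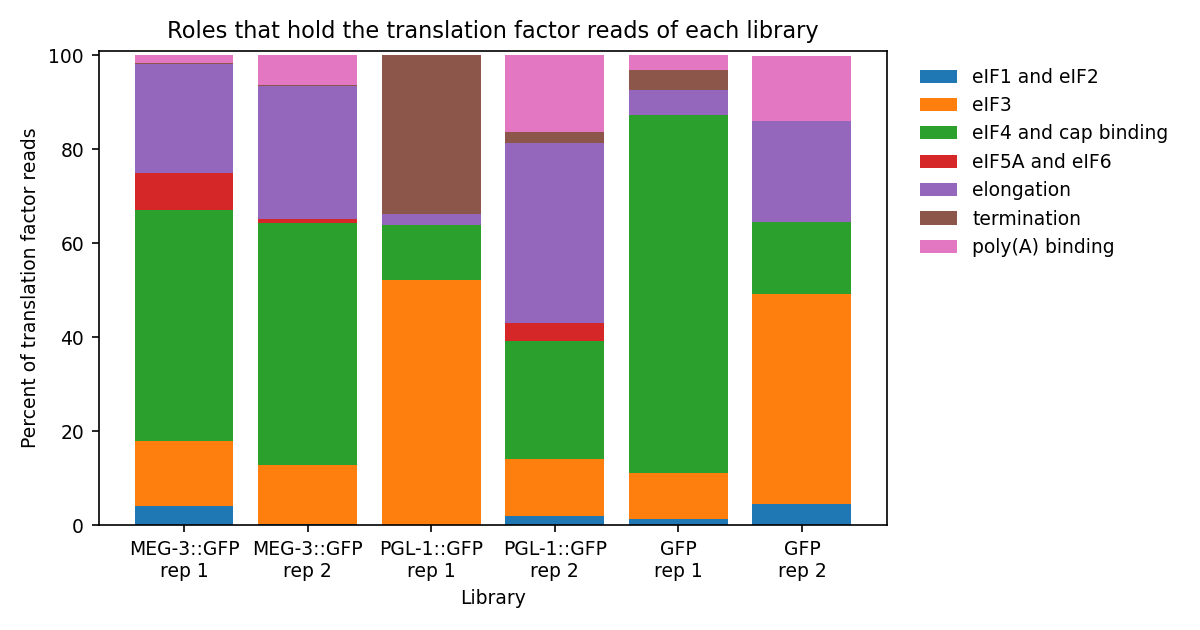
Percent of each library's translation factor reads (y axis) held by genes of each role (coloured segments), by library (x axis). The segment of eIF4 and cap binding is near 50% in both MEG-3::GFP libraries, whereas the replicates of PGL-1::GFP and of GFP differ in composition.

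Between the MEG-3::GFP libraries the share of each role thus differed by less than 5 percentage points, except that of eIF5A with eIF6 (7.82% and 0.888%). Among the smaller shares, those of eIF1 with eIF2 (4.01% and 0.376%) and of poly(A) binding (1.68% and 6.28%) were still far apart in ratio. In PGL-1::GFP the cap-binding group held 11.6% and 25.2% of the reads, and in GFP 76.2% and 15.4%. Gene by gene, 22 of the 33 were read in both MEG-3::GFP libraries, 8 in the second only and 3 in neither. Across those 22 genes Spearman's rho between the libraries' reads was 0.462 (0.433 over the 2885 other genes read in both). In PGL-1::GFP 11 were read in both and 22 in the second only, with a rho of -0.485 over the 11 (0.0833 over 969 other genes), and in GFP 12 were read in both with a rho of -0.0307. These values are across genes, which are not independent replicates. In CPM, 10 of the 22 genes (45.5%) were more than 5-fold apart between the MEG-3::GFP libraries, as were 32.9% of the 2885 other genes.

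**Figure D5:**
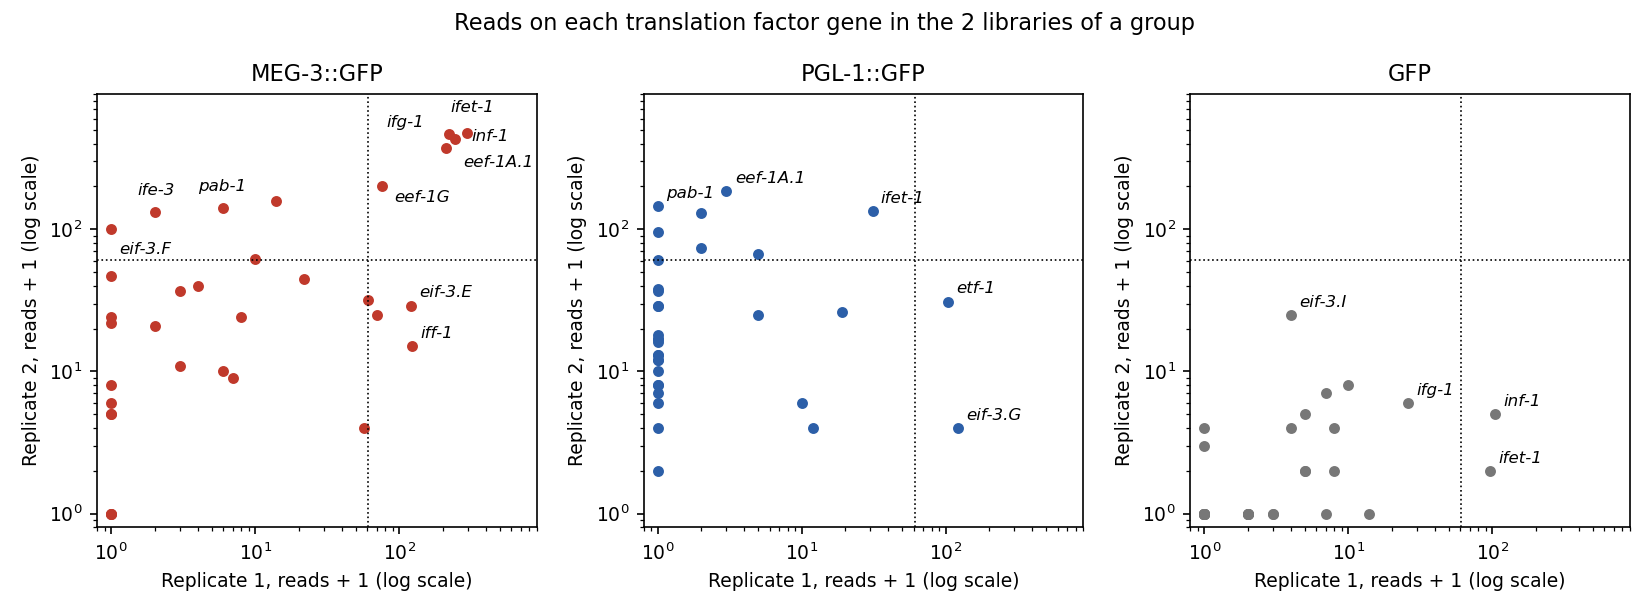
Reads + 1 on each of the 33 genes in replicate 1 (x axis) and replicate 2 (y axis) of each group, on log scales; dotted lines mark 60 reads. In MEG-3::GFP 5 genes lie in the upper right corner, and in PGL-1::GFP and GFP none do.

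Whether the groups overlapped was then counted in CPM. In 8 of the 33 genes (24.2%, against 12.3% of all genes with a read) both MEG-3::GFP libraries were above both GFP libraries, namely eef-1A.1, eif-3.B, eif-3.D, eif-3.G, eif-3.K, iff-1, ifg-1 and eef-1G. Of these, eif-3.B, eif-3.D, eif-3.G, eif-3.K and iff-1 had at most 1 read in each GFP library, and their lower MEG-3::GFP values, at most 50.0 CPM, were below the 113 and 214 CPM that 3 reads make in the GFP libraries. A difference of that size was not detectable at this depth. The reverse order held for 3 genes, eif-3.I, pab-2 and eif-1.A (9.09%, background 4.73%). It too rested on few reads, as the GFP counts were 3 and 24 for eif-3.I, 9 and 7 for pab-2, and 3 and 3 for eif-1.A.

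Both PGL-1::GFP libraries exceeded both GFP libraries in 3 genes, eif-3.C, eif-3.G and eef-1B.1 (9.09%, background 2.61%). Of the 3, eif-3.G and eef-1B.1 had no read in GFP, and their lower PGL-1::GFP values, 32.4 and 189 CPM, were below the 214 CPM limit of GFP replicate 2. For eif-3.C the lower value, 270.0 CPM, stood close above the 226 CPM of GFP replicate 1, which was 6 reads. GFP exceeded PGL-1::GFP in 1 gene, eif-3.F (3.03%, background 4.53%), on GFP counts of only 7 and 3. MEG-3::GFP exceeded PGL-1::GFP in 3 genes, iff-1, ifg-1 and inf-1 (9.09%, background 10.2%). For iff-1 the lower value, 50.0 CPM, was below what 3 reads make in PGL-1::GFP replicate 1. Differences of these sizes were not detectable at this depth. PGL-1::GFP exceeded MEG-3::GFP in 2, eef-1B.1 and etf-1 (6.06%, background 1.93%). For eef-1B.1 this rested on 4 reads in PGL-1::GFP replicate 1, at 189 CPM against 164 CPM in MEG-3::GFP replicate 2. That difference too was not detectable at this depth.

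Differences between groups were tested over all genes with the quasi-likelihood test of edgeR, after a filter on low counts that left 2033 genes and 17 of the 33. No gene, and so no translation factor gene, passed an adjusted p of 0.05 in any of the 3 comparisons (0% of the 2033 in each). In MEG-3::GFP against GFP 63 genes and no translation factor gene had an unadjusted p under 0.05, in PGL-1::GFP against GFP 16 and none, and in MEG-3::GFP against PGL-1::GFP 26 and 1. DESeq2 called 44, 0 and 2 genes in these comparisons, all lower in MEG-3::GFP and none of them among the 33. Of the 17, 11 had a positive and 6 a negative fold change for MEG-3::GFP against GFP, and the median log2 fold change was 1.00 (0.73 over all genes tested). With DESeq2 and its own scaling the split was 8 against 9 and the median -0.03 (0.21). The edgeR median for PGL-1::GFP against GFP, which shares the GFP libraries, was 1.37 (-0.05), and for MEG-3::GFP against PGL-1::GFP -0.99 (0.88). These medians moved when a library was left out, but the filter was then run again, so the genes covered differed too. Without GFP replicate 1 the median for MEG-3::GFP against GFP was 3.88 over 28 translation factor genes, below the 5.70 over all 3994 genes tested. Without PGL-1::GFP replicate 2, with 16 of 1937 genes, that for PGL-1::GFP against GFP was -2.08 (-5.75) and that for MEG-3::GFP against PGL-1::GFP 3.49 (4.88).

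For the 5 genes at 60 reads in both MEG-3::GFP libraries, the fitted log2 difference from GFP was 2.56 (SE 2.65) for eef-1G, 2.15 (SE 2.22) for eef-1A.1, 1.38 (SE 2.17) for ifg-1, 0.05 (SE 1.89) for ifet-1 and -0.33 (SE 1.96) for inf-1. Each had an edgeR adjusted p of 0.999. Over PGL-1::GFP it was 1.74 (SE 2.18) for ifg-1, 1.70 (SE 2.02) for inf-1, 1.46 (SE 2.47) for eef-1G, 0.43 (SE 1.89) for ifet-1 and 0.18 (SE 2.09) for eef-1A.1, each with an edgeR adjusted p of 1. Each of these 10 fold changes was smaller than its standard error. The direction for ifet-1 in both comparisons and for eef-1A.1 against PGL-1::GFP turned when library totals replaced the TMM scaling, and that for inf-1 against GFP turned to 3.02 without GFP replicate 1. The 1 gene under an unadjusted p of 0.05 was etf-1, named here after its values were seen. Its log2 fold change in MEG-3::GFP set over PGL-1::GFP was -6.03 (SE 2.76, edgeR adjusted p = 1), and -3.87 without PGL-1::GFP replicate 1. With DESeq2 it was -7.0 with a DESeq2 adjusted p of 0.0511, while the edgeR adjusted p ranged from 0.595 to 1 over the other settings.

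Other genes of the translation machinery, which the symbol rule did not take in, were counted in the same way. Of 34 aminoacyl-tRNA synthetase genes, whose products charge tRNA, 8 had 60 reads in both MEG-3::GFP libraries and none in both libraries of PGL-1::GFP or of GFP. For this list and those below, the background over all genes with a read was 7.09%, 0.194% and 0.0432% in these groups. One of the 8, gars-1, for the glycine enzyme, had 330 and 145 reads with MEG-3::GFP, 80 and 20 with PGL-1::GFP, and 2 and 0 with GFP alone. The 2 genes listed for release and subunit joining both reached 60 reads in both MEG-3::GFP libraries. These were erfa-3, for eRF3, with 295 and 152, 0 and 50, and 18 and 0 reads, and iffb-1, for eIF5B, with 171 and 71, 0 and 9, and 7 and 0.

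Among 6 genes of eIF2 kinase and TOR signalling, which set the rate of initiation, 3 had 60 reads in both MEG-3::GFP libraries (let-363, rsks-1 and gcn-1). Of 5 mitochondrial translation factor genes 1 did (tufm-1), and of all genes with a read 7.09% did. A further 11 genes have translation factor symbols in RefSeq but not in the deposited table, and were listed after the read counts were seen. Of these E04D5.1, named eif-2A, was the only gene at 60 reads in both MEG-3::GFP libraries, with 147 and 283 reads there, 226 and 40 with PGL-1::GFP, and 89 and 7 with GFP alone. The gene for the gamma subunit of eIF2, Y39G10AR.8, had 165 and 38, 0 and 6, and 2 and 1.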

How the data were processed

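The authors removed adaptors and barcodes, used HISAT2 for alignment to ws235 (version 2.1.0 in the submitters' processing notes), removed PCR duplicates and counted reads per gene with HTSeq. The deposited values are raw read counts per gene, not normalized or pooled; the counting options, the use of strand and the annotation are not given in the sources used here. No column of sample values was left unused. The table has 47085 rows, and 438 identifiers that stood on several rows with identical counts were used once.

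Members were found by symbol, and the members and gene lists were chosen with earlier results of these data known. CPM are counts per 1000000 reads on genes. Shares carry 95% Wilson intervals. The threshold of 60 reads is the background level of the study's methods. Expected detection at a common depth is the hypergeometric expectation for a draw without replacement. One model over the 6 libraries was fitted in edgeR 4.0.16 (R 4.3.3) with TMM scaling, filterByExpr, the quasi-likelihood test and Benjamini-Hochberg adjustment. DESeq2 1.42.0 was the alternative tool. The SE is the absolute log2 fold change over the square root of F, a yardstick from the test. The scripts were tested on simulated data with far less spread between libraries than was fitted here, where the edgeR common dispersion was 1.93. That test does not measure the power to detect differences in these data. Counts were handled with Python 3.11.15, pandas 2.3.3, numpy 2.4.6 and SciPy 1.17.1, and figures drawn with matplotlib 3.10.9.

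Values are given for members with 60 reads in any library, the 3 with the most reads in each library, and the paralogs of eIF5A, eIF4E, eEF1A and poly(A)-binding protein. Fold changes are given for members at 60 reads in both libraries of any group. Other members were named after their values were seen. Groups come from the sample labels. The paper calls the 2 MEG-3::GFP libraries independent experiments, but does not say whether the libraries of a group came from separate cultures. The p-values therefore measure only the spread between these libraries, which may be technical. Libraries of GFP are named in a different scheme from the rest. If that marks a batch, batch and control cannot be told apart. RefSeq positions are of WBcel235, the assembly of ws235. No mRNA sequence was used here.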

Additional observations from a re-analysis of the deposited data

How the results depend on the processing

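The 3 counts of genes past an adjusted p of 0.05 stayed at 0 with library totals in place of TMM, without the filter on low counts and with each of the 6 libraries left out. For MEG-3::GFP against GFP, DESeq2 called 44 genes and edgeR on only the 4 libraries compared called 2, and for MEG-3::GFP against PGL-1::GFP DESeq2 called 2. No translation factor gene was called under any of these settings. With 1 library left out, the median log2 fold change of the translation factor genes ran from 0.89 to 3.88 for MEG-3::GFP against GFP, -2.08 to 4.44 for PGL-1::GFP against GFP and -1.44 to 3.49 for MEG-3::GFP against PGL-1::GFP. The filter was run again each time, so these medians are over different sets of genes. Library totals moved the median log2 fold change of all genes tested from 0.73 to 0.25 for MEG-3::GFP against GFP and from 0.88 to 0.46 for MEG-3::GFP against PGL-1::GFP.

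The number of translation factor genes at 60 reads in both MEG-3::GFP libraries, 5, became 2 with counts scaled to the median library total and 14 with 60 reads in either library. In PGL-1::GFP, 0 became 2 at 30 reads, 1 with scaled counts and 10 in either library, and in GFP 0 became 2 in either library. With 1 library left out, an alternative chosen after seeing the data, the counts ran from 9 to 10, 2 to 8 and 0 to 2. The PGL-1::GFP read share of 1.39% became 1.49% over reads on protein-coding genes and 1.28% without eef-1A.1. That gene had only 2 of the 302 translation factor reads of PGL-1::GFP replicate 1, where eif-3.G and etf-1 together had 222. The share without eif-3.G and etf-1 was not tested. With 1 library left out, shares ran from 0.686% to 1.05%, 1.35% to 1.43% and 0.463% to 1.12% in the 3 groups, in the same order. Of 110 refitted fold changes 15 had the other sign, over 4 of 11 results. These were eef-1A.1 against PGL-1::GFP (-0.18 with library totals, -0.38 with DESeq2, -0.63 and -0.93 without MEG-3::GFP replicate 2 or PGL-1::GFP replicate 1), inf-1 against GFP (3.02 without GFP replicate 1), ifet-1 against GFP (-0.37 with library totals, -0.24 with DESeq2, and -0.26, -0.09, -0.22 and -1.07 without MEG-3::GFP replicate 2, PGL-1::GFP replicate 1, PGL-1::GFP replicate 2 or GFP replicate 2) and ifet-1 against PGL-1::GFP (-0.05 with library totals, -0.27 with DESeq2, -0.09 and -0.06 without MEG-3::GFP replicate 2 or PGL-1::GFP replicate 1). With 1 library left out, the values ran from -0.93 to 3.87, from -1.38 to 3.02, from -1.07 to 5.18 and from -0.09 to 0.58 for these results in turn. The cause was not tested. The column names number the libraries of every group, and a fit with this number as a replicate block, added after seeing the data, again called 0 genes in each comparison, with 26, 5 and 4 genes at an unadjusted p under 0.05 against 63, 16 and 26 without it. None of the 11 fold changes turned under the block, but the median of the translation factor genes for MEG-3::GFP against PGL-1::GFP turned from -0.99 to 0.40. Replicate 1 deviations from the group means correlated at -0.0542, 0.188 and 0.0483 between the groups over 2033 genes. Whether libraries of the same number shared a batch was not tested. Detection at a common depth was also added after seeing the data. In the GFP libraries and PGL-1::GFP replicate 1, with 14040 to 26531 reads, 60 reads are 2262 to 4274 CPM. Only genes with a large share of a library's reads could therefore reach the threshold there.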
